A study of Mus musculus with 6 samples.

Results

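The genes described here are 31 components of the machinery of mitosis: kinases, cyclins and the factors that destroy them, kinesins and spindle proteins, centromere and kinetochore proteins, and a few genes of chromosome structure and of mitotic transcription. They were chosen by name, with earlier results of these data known. Of the 31 genes, 29 have a probe under their symbol in the platform annotation, with 59 of the array's 45281 probes. Ccnb1 and Mki67 have none there and are named only. The annotation leaves 10378 probes without a symbol, so the array may still hold probes for them. In 24 of the genes 45 probes were detected (detection p under 0.05) on at least 2 of the 6 arrays and were tested, among 18076 such probes in all.

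Mitosis is driven by a cyclin-dependent kinase, Cdk1, which is switched on by cyclins A and B. Further kinases of the Aurora, Polo and checkpoint families then build the spindle and watch over the attachment of chromosomes at the kinetochores. The anaphase-promoting complex ends mitosis by marking cyclins and other mitotic proteins for destruction. Transcripts of these genes are known to rise together late in the cell cycle and are widely used as a measure of proliferation in tumours.

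Gene expression was measured on Illumina bead arrays in 4T1ch9, a clone derived from the 4T1 mouse mammary carcinoma line of Balb/c origin. All cells had been transduced with lentiviral shRNA particles and selected with puromycin for 5 to 6 days. The 2 control arrays carried non-targeting shRNA, 1 with 6 µl and 1 with 18 µl of virus. The 4 other arrays carried shRNA against STC1, the gene of the secreted glycoprotein stanniocalcin-1, as 2 replicates with 6 µl and 2 replicates with 18 µl. No untransduced cells and no second clone were among the arrays, and the labels name the STC1 shRNA only by its target. The sources do not say whether the arrays came from separate cultures, and if they did not, the p-values reflect technical spread alone.

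Between 16252 and 17507 probes were detected per array, and the mean intensity ranged from 228.3 to 310.6. The targeted gene Stc1 stood at normalised log2 intensities of 9.05 and 9.32 on the non-targeting arrays, 7.68 and 7.87 on the STC1 6 µl arrays, and 8.05 and 7.74 on the STC1 18 µl arrays, a 2.54-fold fall (limma adjusted p = 0.00250). Of 11 epithelial markers 6 were detected, while Epcam was not. Krt8 and Krt18 each had a probe detected on all 6 arrays. Cdh1 was dim, with 1 probe detected on 4 arrays at intensities of 47.4 to 71.2 and the other on no array. Of 9 leukocyte markers 6 have a probe under their symbol and 2 were detected (Cd3e and Csf1r), with Ptprc on no array. Detected too were 2 of 7 fibroblast markers (Pdgfra and Pdgfrb, without Col1a1 or Dcn) and 1 of 5 endothelial markers (Kdr, without Pecam1 or Cdh5). In a bulk sample, fewer cells in mitosis and less RNA per cell cannot be told apart.

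The promoters of these genes carry sequence features that the choice of genes did not use. Many promoters of mitotic genes are known to hold CCAAT boxes, bound by the factor NF-Y. Many also hold a cell cycle homology region (CHR), bound by the MuvB complex. In the 300-base windows that RefSeq (GRCm38.p6) gives for 26 of the 31 genes, 250 bases before and 50 after the start, the letters CCAAT were searched on both strands, and so were both forms of the CHR, TTTGAA and its variant TTTAAA, each counted whether or not matches overlapped. CCAAT was present in 22 of 27 promoters (81.5%), against 37.4% of 32851 promoters in the whole table. TTTGAA was present in 20 (74.1%), against 17.9%, and TTTAAA in 9 (33.3%), against 13.2%. In 15 of the promoters (55.6%, against 11.7% of all) CCAAT occurred 2 or more times. In 161 promoters of related cell cycle genes, CCAAT was present in 50.9% and either CHR form in 41.0%, against 85.2% of the mitotic promoters and 27.6% of all for either form. A match describes letters and is not evidence of a bound site.

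The 250 bases before the start are shown for the genes on which the results turn: Aurka and Cenpf, whose probes passed the test, and Nusap1 and Top2a, which have the smallest p-values among the kinesin and spindle group and the chromosome group. Capitals mark CCAAT boxes and both CHR forms on the strand of the gene, and their reverse complements. The Aurka stretch lies at chr2:172370571-172370820 on the minus strand, with CCAAT at -51 and -19 and its CHR letters just after the start, outside the stretch printed.
Aurka: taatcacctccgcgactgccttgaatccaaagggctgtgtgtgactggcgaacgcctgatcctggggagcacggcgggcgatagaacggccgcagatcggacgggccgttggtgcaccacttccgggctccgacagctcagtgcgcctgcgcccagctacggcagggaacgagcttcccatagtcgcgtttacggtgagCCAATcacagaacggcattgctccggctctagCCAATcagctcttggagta
The Cenpf stretch lies at chr1:189688087-189688336 on the minus strand and holds 2 CCAAT boxes and a TTTAAA.
Cenpf: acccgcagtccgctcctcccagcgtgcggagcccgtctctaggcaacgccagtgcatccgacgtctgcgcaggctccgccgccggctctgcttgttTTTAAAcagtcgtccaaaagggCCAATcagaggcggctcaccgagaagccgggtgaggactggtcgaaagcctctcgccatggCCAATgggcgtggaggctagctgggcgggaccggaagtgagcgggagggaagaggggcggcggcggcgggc
The Top2a stretch lies at chr11:99024190-99024439 on the minus strand and holds 6 CCAAT boxes, 5 of them as the reverse complement ATTGG, and TTTGAA at -179 and, as its reverse complement, at -23.
Top2a: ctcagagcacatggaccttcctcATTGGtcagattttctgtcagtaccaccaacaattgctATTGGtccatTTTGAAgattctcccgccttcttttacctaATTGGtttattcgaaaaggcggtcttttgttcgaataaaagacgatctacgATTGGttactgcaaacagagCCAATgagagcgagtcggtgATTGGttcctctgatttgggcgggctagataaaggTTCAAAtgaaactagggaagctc
The Nusap1 stretch lies at chr2:119618048-119618297 on the plus strand and holds none of these letters in its window.
Nusap1: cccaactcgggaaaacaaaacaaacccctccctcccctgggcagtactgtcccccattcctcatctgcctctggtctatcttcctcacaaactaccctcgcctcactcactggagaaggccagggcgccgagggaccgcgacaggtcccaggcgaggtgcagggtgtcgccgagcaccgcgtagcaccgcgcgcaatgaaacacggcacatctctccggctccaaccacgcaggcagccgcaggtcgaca
The promoters of the called and uncalled genes were not compared by a test.

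The first comparison set the 4 STC1 arrays against the 2 non-targeting arrays. The kinase gene Aurka fell 1.56-fold and 1 of 2 Cenpf probes rose 1.41-fold, while 43 of the 45 mitotic probes did not pass. The 2 calls are 4.44% of the mitotic probes, and 7.78% of all tested probes were called (limma, Benjamini-Hochberg adjusted p under 0.05), 3.81% higher and 3.98% lower. The order of these shares depended on the scale and was not tested: the calls were 13.3% of the mitotic probes and 12.7% of all probes without background correction, and 17.8% and 14.0% with median scaling. At an unadjusted p under 0.05 there were 7 mitotic probes higher and 3 lower, where 26.0% of all probes reached that level. The log2 differences ran from -0.79 to 0.49 with a median of 0.04, beside a median of 0.014 over all probes, and 29 probes lay above 0 and 16 below, or 39 and 6 when the arrays were scaled by their medians, which brought the median of all probes to 0.149. The groups did not overlap for 13 of the 45 probes (28.9%), 10 above and 3 below the controls, and 35.4% of all probes had no overlap (18.9% above, 16.5% below).

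The precision of the arrays sets what these values can show. The standard errors of the mitotic probes lay between 0.11 and 0.29, with a median of 0.12. For 44 of 45 probes the 95% interval of the difference stayed within a 2.00-fold change in either direction, and for 32 it stayed within 1.41-fold. The plot of differences by gene shows these intervals.

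**Figure D1:**
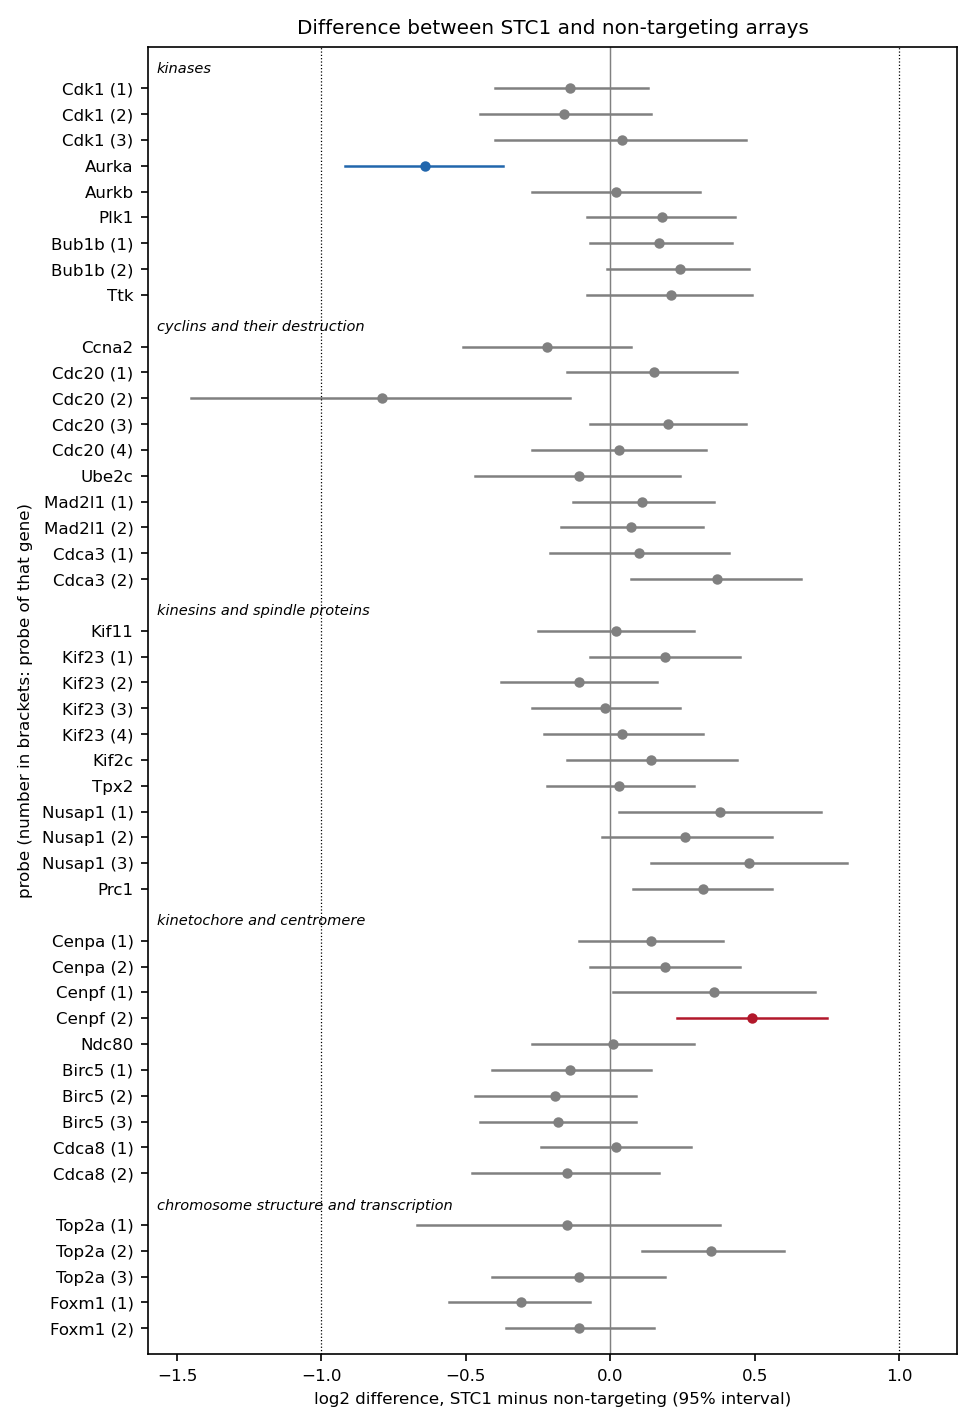
Log2 difference between the 4 STC1 arrays and the 2 non-targeting arrays for the 45 tested probes of mitotic genes, with 95% intervals from limma. Blue marks the Aurka probe (-0.64) and red the Cenpf probe (0.49) that passed an adjusted p of 0.05, and the dotted lines mark a 2.00-fold change.

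Among the mitotic kinases, Aurka, which matures the centrosomes and builds the spindle, was lower on every STC1 array. Its probe ILMN_2617228 measured 11.53 and 11.78 on the non-targeting arrays, 10.96 and 11.12 on the STC1 6 µl arrays and 10.98 and 10.98 on the STC1 18 µl arrays. The 4 STC1 arrays lay below both controls, with a log2 difference of -0.64 (SE 0.12, limma adjusted p = 0.0199). The deposited intensities were 2473, 3388, 2437, 2359, 1995 and 1981 in the same order, so that before normalisation the non-targeting 6 µl array and the first STC1 6 µl array were nearly equal, and these arrays had mean intensities of 228.3 and 310.6. Median scaling gave a difference of -0.44, which missed the threshold (limma adjusted p = 0.0708). Leaving out 1 array gave differences from -0.77 to -0.52, and the call was lost without non-targeting 6 µl (adjusted p = 0.0618), without non-targeting 18 µl (0.135) and without either STC1 6 µl array (0.0597 and 0.0593).

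None of the 8 other kinase probes passed. Plk1, the Polo kinase that acts at centrosomes and kinetochores, measured 10.88 and 10.95 on the non-targeting arrays, 11.02 and 11.13 with 6 µl and 11.03 and 11.18 with 18 µl of STC1 virus. Every STC1 array lay above both controls, by a difference of 0.18 (SE 0.11, adjusted p = 0.354). Bub1b, a checkpoint kinase-like protein that restrains the anaphase-promoting complex, has 2 probes, at 0.17 and 0.24. The latter measured 8.55 and 8.64 on the controls, 8.85 and 8.79 with 6 µl and 8.84 and 8.87 with 18 µl (SE 0.11, adjusted p = 0.202). On both Bub1b probes the STC1 arrays were all above the controls. Ttk, the kinase at the head of the spindle checkpoint, measured 7.68 and 7.39, then 7.85 and 7.79, then 7.59 and 7.74, a difference of 0.21 (adjusted p = 0.336) with overlapping groups.

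Cdk1 itself has 3 tested probes, at -0.14, -0.16 and 0.04. The first of them measured 11.14 and 11.25 on the controls, 11.15 and 10.95 with 6 µl and 11.10 and 11.01 with 18 µl, with overlapping groups. Aurkb, the Aurora kinase of the chromosomal passenger complex, was at 0.02. Bub1 and Nek2, which act at the kinetochore and the centrosome, had no probe detected on 2 arrays. The probes closest to that limit were a Cdk1 probe detected on 2 arrays (detection p of 0.0353 and 0.00855), which was tested, and a Ttk probe detected on 1 (0.00855), which was not.

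**Figure D2:**
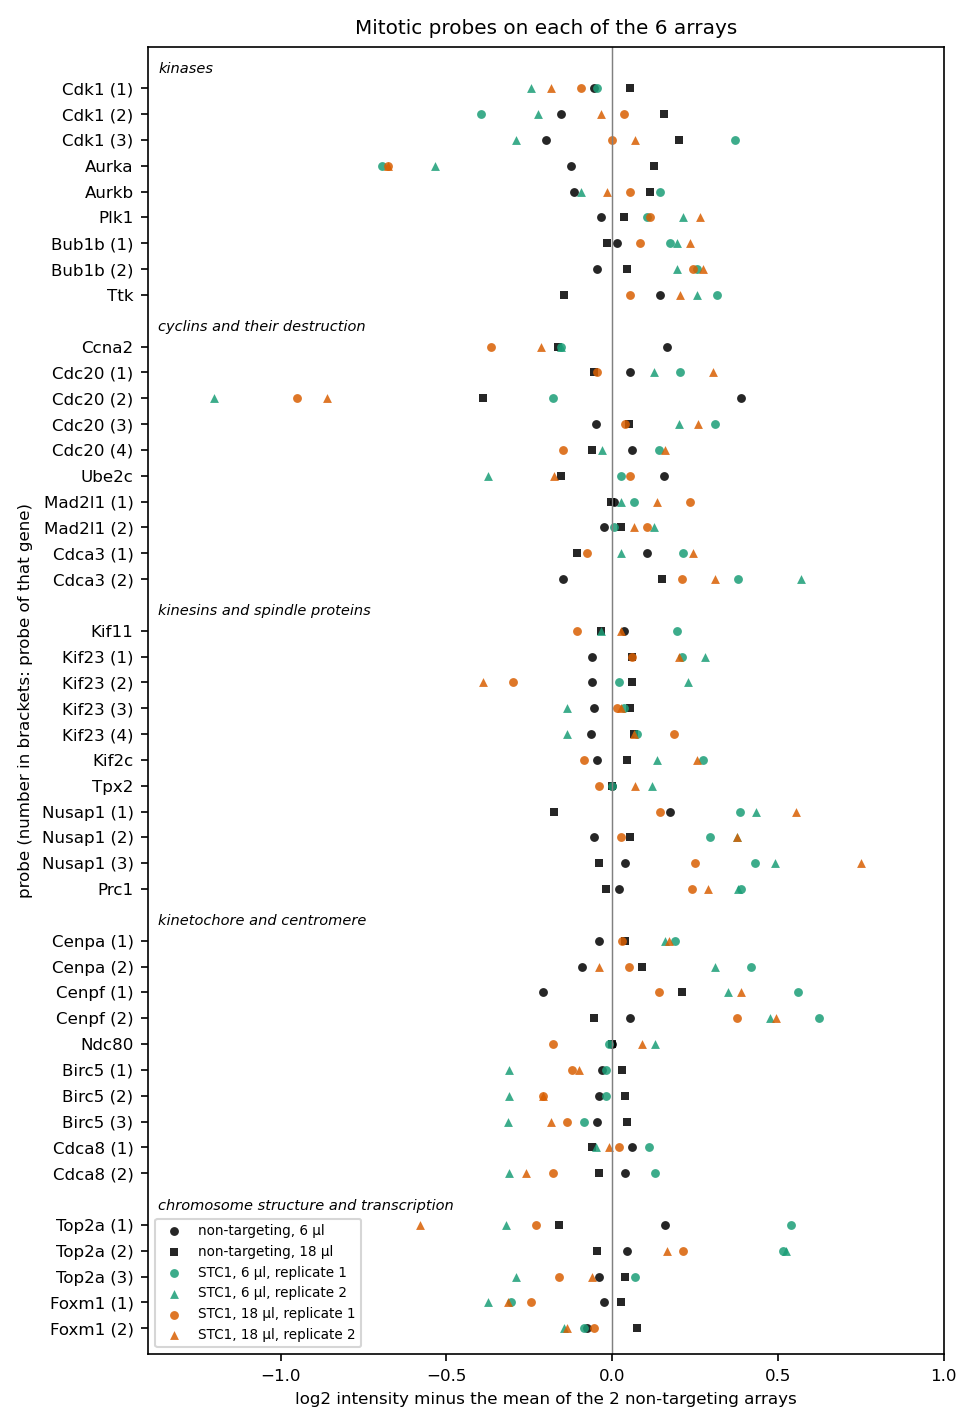
Normalised log2 intensity of mitotic probes on each of the 6 arrays, shown relative to the mean of the 2 non-targeting arrays. All 4 STC1 arrays lie below the controls for Aurka and above them for the called Cenpf probe.

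Of the cyclins and the factors that destroy them, none of 10 probes passed, and the median difference was 0.09. Ccna2, the cyclin of S phase and mitotic entry, measured 6.72 and 6.39 on the controls, 6.40 and 6.40 with 6 µl and 6.19 and 6.34 with 18 µl (difference -0.22, adjusted p = 0.322). The second control lay among the STC1 arrays. Ccnb2, a B-type cyclin, had no tested probe.

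Cdc20, the activator that brings the anaphase-promoting complex to its targets, has 4 tested probes that disagree in sign. They were at 0.15, -0.79, 0.20 and 0.03. The probe at -0.79 measured 7.67 and 6.89 on the controls, 7.10 and 6.08 with 6 µl and 6.33 and 6.42 with 18 µl, and its 2 controls differed by 0.78 (SE 0.29, adjusted p = 0.125). The probe at 0.20 measured 11.23 and 11.33, then 11.59 and 11.48, then 11.32 and 11.54 (adjusted p = 0.320). Its groups overlapped at a single STC1 18 µl array.

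Cdca3, which in Xenopus is an F-box protein that removes the Cdk1 inhibitor Wee1, measured 8.42 and 8.72 on the controls, 8.95 and 9.14 with 6 µl and 8.78 and 8.88 with 18 µl on its second probe. All STC1 arrays were above both controls, by 0.37 (SE 0.13, adjusted p = 0.119), and the other probe was at 0.10. Ube2c, the ubiquitin-conjugating enzyme of the complex, was at -0.11. Mad2l1, the checkpoint protein that holds Cdc20 back, was at 0.11 and 0.07.

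None of the 11 probes of kinesins and spindle proteins passed, although 9 lay above 0 and their median of 0.14 was the highest of the 5 groups. Prc1, which cross-links microtubules in the anaphase midzone, measured 12.13 and 12.09 on the controls, 12.50 and 12.49 with 6 µl and 12.35 and 12.40 with 18 µl. Every STC1 array was above both controls, by 0.32 (SE 0.11, adjusted p = 0.0976). Nusap1, a microtubule-bundling spindle protein, has 3 tested probes, at 0.38, 0.26 and 0.48 (adjusted p = 0.159, 0.243 and 0.0836).

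The third Nusap1 probe measured 5.70 and 5.62 on the controls, 6.09 and 6.15 with 6 µl and 5.91 and 6.41 with 18 µl. Its groups did not overlap. The first measured 6.42 and 6.07, then 6.63 and 6.68, then 6.39 and 6.80, and the second, in the bright range, 11.38 and 11.49, then 11.73 and 11.81, then 11.46 and 11.81. In both of these, 1 STC1 18 µl array lay below a control. With 1 array left out the third probe ranged from 0.36 to 0.61, with limma adjusted p between 0.0258 and 0.284, and it was at 0.30 without background correction.

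None of the probes of the motor proteins or of Tpx2 passed. Kif11, the motor that pushes the spindle poles apart, was at 0.02, Kif2c, a microtubule depolymerase of the centromere, at 0.14, and Tpx2, the activator of the Aurka protein, at 0.03. The 4 Kif23 probes, for the motor of the central spindle, were at 0.19, -0.11, -0.02 and 0.04. Kif20a, a motor of cytokinesis, had no tested probe.

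Among the 10 kinetochore and centromere probes 1 passed. Cenpf, a large protein of the outer kinetochore, measured 6.29 and 6.18 on the controls, 6.86 and 6.71 with 6 µl and 6.61 and 6.73 with 18 µl of STC1 virus on probe ILMN_2666731. All 4 STC1 arrays were above both controls, by 0.49 (SE 0.11, limma adjusted p = 0.0381). The other Cenpf probe, ILMN_2581479, measured 6.25 and 6.67, then 7.02 and 6.81, then 6.60 and 6.85, a difference of 0.36 in the same direction that did not pass (adjusted p = 0.180), with 1 STC1 18 µl array below a control. Both Cenpf probes were detected on all 6 arrays, with deposited intensities between 103 and 182 on the called one. The difference on the called probe was 0.35 without background correction, 0.36 with an offset of 50 and 0.63 with median scaling. Its size is therefore uncertain. The call was lost in 5 of 6 fits that left out 1 array, with differences from 0.44 to 0.55 and adjusted p between 0.0447 and 0.195, and was kept only without the first STC1 18 µl array.

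Cenpa, the histone variant that marks the centromere, was at 0.14 and 0.19. Its second probe measured 5.64 and 5.82 on the controls, 6.15 and 6.04 with 6 µl and 5.78 and 5.69 with 18 µl, with the STC1 18 µl arrays within the controls, and its difference was 0.12 without background correction. Birc5 (survivin) and Cdca8 (borealin) belong with Aurkb to the chromosomal passenger complex. The 3 Birc5 probes were at -0.14, -0.19 and -0.18, and the second of them turned to 0.01 with median scaling. It measured 10.91 and 10.99 on the controls, 10.93 and 10.64 with 6 µl and 10.74 and 10.74 with 18 µl. The Cdca8 probes were at 0.02 and -0.15. Ndc80, the microtubule-binding core of the kinetochore, was at 0.01, and Cenpe, a kinetochore motor, had no tested probe.

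None of the 5 probes of chromosome structure and mitotic transcription passed. Top2a, which untangles DNA before chromosomes separate, has 3 tested probes at -0.15, 0.35 and -0.11, and the last turned to 0.07 with median scaling. The second measured 7.58 and 7.49 on the controls, 8.05 and 8.06 with 6 µl and 7.75 and 7.70 with 18 µl, with every STC1 array above both controls (adjusted p = 0.0785). The third measured 11.02 and 11.10 on the controls and from 10.77 to 11.13 on the STC1 arrays, with overlapping groups.

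Foxm1, the transcription factor that switches on many of these genes, was at -0.31 and -0.11. The first probe measured 8.43 and 8.48 on the controls, 8.15 and 8.08 with 6 µl and 8.21 and 8.14 with 18 µl, with all STC1 arrays below both controls (SE 0.11, adjusted p = 0.111). The second measured 8.31 and 8.46, then 8.30 and 8.24, then 8.33 and 8.25, with overlapping groups, and its difference turned to 0.06 with median scaling. Over all 24 genes, 13 had several tested probes, and in 8 of these the probes had 1 sign.

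The 2 virus volumes were then set against the controls separately. At 6 µl 0 of 45 mitotic probes passed, where 3.82% of all probes did (2.00% higher, 1.82% lower), and at an unadjusted p under 0.05 limma gave 8 higher and 2 lower, where 22.9% of all probes reached that level. At 18 µl 1 probe passed, that of Aurka (2.22% of the mitotic probes), where 3.97% of all probes did (1.68% higher, 2.28% lower). At an unadjusted p under 0.05 the 18 µl comparison gave 2 higher and 3 lower, where 21.6% of all probes reached that level. Both comparisons share the 2 control arrays, and their values for the members are given side by side. Aurka was at -0.61 with 6 µl (adjusted p = 0.0502) and -0.68 with 18 µl (adjusted p = 0.0387), and the 18 µl call was lost without any 1 of the 6 arrays. The called Cenpf probe was at 0.55 and 0.44 (adjusted p = 0.0583 and 0.103). The second Top2a probe was at 0.52 and 0.19, and 6 µl did not pass (adjusted p = 0.0564).

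Between the 18 µl and 6 µl STC1 arrays no mitotic probe passed in limma, nor did any of the 18076 probes (0% of all), and at an unadjusted p under 0.05 there were 0 higher and 3 lower (6.80% of all probes). These 3 were a Kif23 probe at -0.47, the second Cenpa probe at -0.36 and the second Top2a probe at -0.32, which were chosen after their values were seen. The difference of the STC1 effect between the volumes also gave 0 calls, with 0 higher and 1 lower at an unadjusted p under 0.05 (4.28% of all probes). The 95% intervals of that difference reached 0.54 to 1.12 to either side, and 37 of 45 intervals stayed within a 2.00-fold change.

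**Figure D3:**
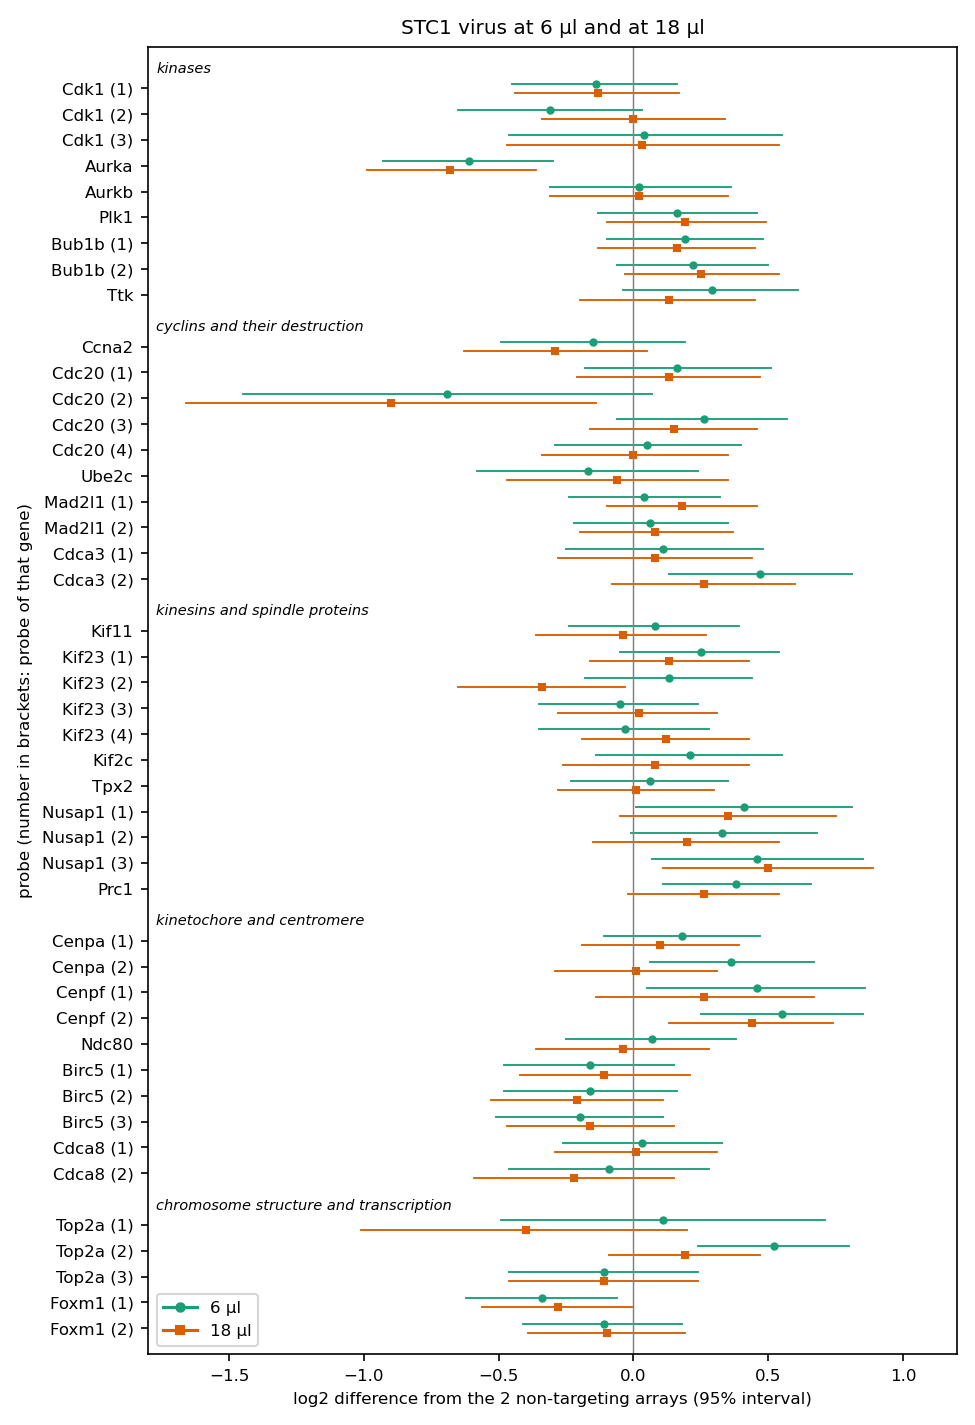
Log2 difference against the non-targeting arrays for the 45 mitotic probes at 6 µl and at 18 µl of STC1 virus, with 95% intervals from limma. The Aurka probe is at -0.61 and -0.68, and the called Cenpf probe at 0.55 and 0.44.

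The 2 controls differed by a median of 0.12 over the mitotic probes and by over 0.3 on 8 of them. The kinesin and spindle probes had medians of 0.21, 0.23, 0.02 and 0.20 on the STC1 arrays relative to the control mean, with the first 18 µl array lower than the other 3.

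Genes that act beside these were examined as 9 further lists, together 160 genes, of which 246 probes of 137 genes were tested. In the STC1 comparison 5 of these probes were higher and 6 lower (4.47%, where 7.78% of all tested probes were called). Their median difference was 0.00. Over all tested probes 3.81% were higher and 3.98% lower, beside which the counts of single lists below stand. The calls among the 11 probes rest on few arrays, and some were lost in each fit that left out 1 array. Most were lost when the first control, the second control or the second STC1 6 µl array was the one left out. Such a fit keeps 1 array in a group, and all 11 differences kept their sign.

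The spindle and kinetochore neighbours mostly did not pass. Of 27 probes of other kinesins and spindle genes 0 did, with a median of 0.10. Stmn1, a microtubule destabiliser, was at 0.29. The minus-end motor Kifc1 was at -0.31 and 0.07, Kif15 at -0.24 and 0.16, and Spag5 at -0.11 and 0.17, so that the probes of these genes disagree in sign. Of 53 probes of other kinetochore genes 1 rose, a dim probe of Ska2, part of the complex that couples kinetochores to microtubules. It measured 4.86 and 4.76 on the controls, 5.77 and 5.85 with 6 µl and 5.52 and 5.82 with 18 µl, a difference of 0.93 (SE 0.12, limma adjusted p = 0.00614) with all STC1 arrays above. The probe was detected on 5 of the 6 arrays, and its difference was 0.49 without background correction, so the size of the rise is uncertain. The other Ska2 probe was at 0.17.

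Of 23 probes of the anaphase-promoting complex 1 rose, that of the subunit Anapc13 (0.56, limma adjusted p = 0.0254), with Cdc23 at 0.49 (0.0507). The 3 probes of Cdc27, another subunit, were at -0.42, -0.06 and -0.48. Among 39 cohesin probes 1 was higher and 1 lower. Pds5a, a regulator of cohesin on chromatin, fell (-0.66, limma adjusted p = 0.0114), and 1 probe of the cohesin loader Nipbl rose (0.62, adjusted p = 0.0402), while its 6 other probes were between -0.02 and 0.25.

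Of 20 condensin probes 1 fell, in Ncapg2, a subunit of condensin II (-0.59, limma adjusted p = 0.0476), with its other probes at -0.65 and -0.04. None of 10 cytokinesis probes passed, with the septin gene Septin9 at -0.45 (adjusted p = 0.0582). Among 21 probes of the Cdc25 and Wee1 axis, which sets Cdk1 activity, 1 probe of Arpp19 rose (0.66, adjusted p = 0.0130). Arpp19 encodes an inhibitor of the phosphatase that opposes Cdk1, and its other probe was at 0.44 (adjusted p = 0.0542), or 0.25 without background correction. Ensa, its close relative, was at 0.43, -0.06 and -0.02.

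Of 26 probes of G1 cyclins, their kinases and inhibitors 4 fell (15.4%, where 3.98% of all tested probes fell). They lie in 3 genes, and the list's median was -0.17. These shares were not compared by a test. Ccnd1, the cyclin that starts G1 progression, measured 11.31 and 11.29 on the controls, 10.53 and 10.29 with 6 µl and 10.52 and 10.24 with 18 µl on 1 probe, a 1.88-fold fall (limma adjusted p = 0.00739), with its other probes at -0.35 and -0.28. The mitotic and G1 lists were not compared by a test. Both tested probes of Cdkn1a, the inhibitor p21, fell (-1.06 and -0.90), and were at -0.69 and -0.47 without background correction. The second was detected on 5 of the 6 arrays. In Ccng1, an atypical cyclin, 1 probe fell (-0.56, adjusted p = 0.0360), and its other probes were at -0.17 and -0.43. The Ccng1 call was lost with median scaling (-0.40, limma adjusted p = 0.104) and without the filter on dim probes (adjusted p = 0.0651). With 1 array left out its difference ran from -0.73 to -0.40. Of 27 probes of the MuvB, E2F and RB regulators 1 rose, for the tumour suppressor Rb1 (0.55, adjusted p = 0.0402), with its other probe at 0.47.

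**Figure D4:**
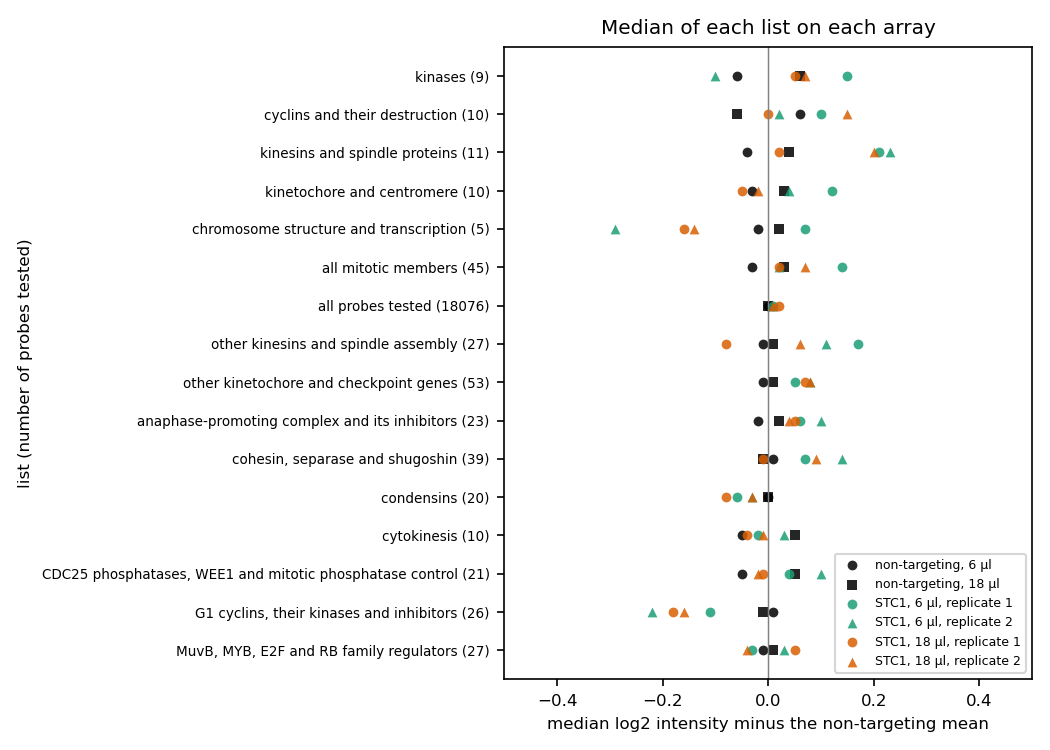
Median log2 intensity of each list's tested probes on each of the 6 arrays, relative to the mean of the 2 non-targeting arrays, for the 5 mitotic groups, all mitotic probes, all tested probes and the 9 further lists. The G1 list lies between -0.22 and -0.11 on the STC1 arrays, and the mitotic probes between 0.02 and 0.14.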

How the data were processed

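Total RNA of 6 samples was labelled with biotin and hybridised to Illumina bead arrays, per the labels' protocols. The authors deposited non-normalised intensities with their detection p-values, 1 of each per probe and array, per the file headers. The authors also deposited a table of log2 values, which matched quantile-normalised log2 intensities (median absolute difference per array 0.000154 or less). The scanner software is not given in the sources used here. Intensities were background-corrected from detection p-values, quantile-normalised and put on the log2 scale (neqc, offset 16, limma 3.58.1 in R 4.3.3). Probes with detection p under 0.05 on at least 2 arrays were kept (18076), 1 mean per group was fitted (lmFit, eBayes), and p-values were adjusted over all of them (Benjamini-Hochberg). The difference between volumes of the STC1 effect used 1 mean per virus and volume, with 2 residual degrees of freedom. Probes were not averaged within a gene, and a probe number follows the order of its identifier among the tested probes. Gene names come from GEO's platform annotation, which gives 1 symbol to 34885 probes, several to 18 and none to 10378.

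Values on every array (for a Top2a probe, their range) are given for Stc1, for each mitotic probe past the threshold with the other probes of its gene, and for the 4 probes with the smallest p in each group. The first Cdk1 probe was added after its values were seen. Of each related list the genes called and up to 4 with the smallest p are named. The members and lists were chosen with earlier results of these data known. The fit was tested on simulated data for STC1 versus non-targeting, with 50 changed probes per size. It recovered 0 of 50 at a log2 change of 0.25, 16 of 50 at 0.5, 49 of 50 at 1 and 50 of 50 at 1.5. All other probes were simulated without a difference, and 9 of them were called. In the data 7.78% of all tested probes were called. The adjusted threshold depends on how many probes differ, so the recovered shares need not hold for the data. Alternatives were other background correction and offset, the authors' values, median scaling, 2 other filters, a replicate block, a volume covariate, 2 groups, and each array left out. Promoters were matched by symbol in RefSeq windows. Protein and probe sequences were not used here.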

Additional observations from a re-analysis of the deposited data

How the results depend on the processing

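The counts of mitotic probes called depended on the scale. For STC1 against non-targeting, 1 higher and 1 lower became 4 and 2 without background correction, with an offset of 50 and with the authors' values, and 7 and 1 with median scaling. Calls over all probes went from 7.78% to 12.7% in each of the first 3 settings and to 14.0% in the last. The genes added by these settings were Cdc20, Cdca3, Prc1, Top2a, Foxm1 and Nusap1, and Aurka was lost with median scaling. Median scaling shifted the median of all probes to 0.149 and their calls from 688 higher and 719 lower to 2043 and 485. With 1 array left out, which leaves 1 array in a group, the median mitotic difference ran from 0.03 to 0.08. At 6 µl, 0 and 0 became 4 and 1 without background correction, with an offset of 50 and with the authors' values, 10 and 0 with median scaling, and 2 and 1 with detection on all 6 arrays. Calls over all probes went from 3.82% to 8.73%, 8.85%, 8.68%, 16.5% and 7.17% in these settings in turn. At 6 µl the median mitotic difference ran from 0.02 to 0.14 with 1 array left out, beside 0.07 in the main fit. At 18 µl the 1 lower call became 0 without the filter, where 0.850% of all probes were called, against 3.97% with it. With median scaling the call was Cdc20 in place of Aurka, where 5.37% of all probes were called. The median mitotic difference at 18 µl ran from 0.02 to 0.08 with 1 array left out. The causes of these changes were not tested. The comparison of volumes and the difference of the STC1 effect gave 0 mitotic calls in every setting run. The difference could not be fitted without a non-targeting array.

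With median scaling Foxm1 ILMN_2731974 turned to 0.06, Top2a ILMN_2830661 to 0.07 and Birc5 ILMN_2632712 to 0.01. The replicate block took the higher calls from 1 to 0 (Cenpf at limma adjusted p = 0.0522) and left the 1 lower. The numbers share only a label: deviations of same-numbered arrays correlated at -0.02, -0.11 and 0.00, and the control numbers are also the volumes. Of 493 values of 33 single probes under alternatives, 410 kept direction and side of the threshold, 22 newly passed, 58 no longer passed and 3 turned sign. The low number of arrays limits every result, and the called Ska2 probe and 1 Cdkn1a probe were not detected on every array.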
